A study of Mus musculus with 13 samples.

Results

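The platelet-derived growth factor (PDGF) genes are 4 ligands, Pdgfa, Pdgfb, Pdgfc and Pdgfd, and 2 receptors, Pdgfra and Pdgfrb. Cerebral meninges were profiled from newborn mice that lack PDGF-C and carry only 1 functional allele of the receptor PDGFRα, and from their littermates. Each of the 6 genes was represented by a single probe set whose only gene symbol was that of the gene, out of 35557 probe sets, and the 6 were tested among 19938 genes. All 6 could be measured in all 13 mice.

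The mutant group held 4 newborn pups of genotype Pdgfc-/-; Pdgfra GFP/+. The control group held the 9 remaining pups, and the study pooled in it several genotypes: pups with Pdgfc-/- alone, with Pdgfc+/- alone, with Pdgfc+/+ alone, and pups with Pdgfra GFP/+ on a Pdgfc+/+ or a Pdgfc+/- background. The labels do not say which control had which of these, so a control may lack PDGF-C as the mutants do, or may carry the same Pdgfra allele. All pups were C57BL6 and came from 1 litter, each mouse had its own array, and all alleles were constitutive. The Pdgfra GFP allele is a null allele in which a nuclear green fluorescent protein is made from the Pdgfra promoter, and the Pdgfc null allele makes β-galactosidase from the Pdgfc promoter. Where the array probes lie relative to the altered part of either gene was not known here, so the levels of Pdgfc and Pdgfra do not settle which allele a transcript came from.

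PDGFs are dimeric growth factors that bring receptor chains together, after which the receptor tyrosine kinases phosphorylate each other and recruit signalling proteins. PDGF-A and PDGF-C bind PDGFRα, which is best known in fibroblasts, other mesenchymal cells and oligodendrocyte precursors. PDGF-B from endothelial cells binds PDGFRβ and draws pericytes to growing vessels, and PDGF-D also binds PDGFRβ. PDGF-C and PDGF-D are secreted with a CUB domain that proteases must remove before they can bind.

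The values are linear intensities from Affymetrix Mouse Gene 1.0 ST arrays, and they have no unit and no zero that would allow 1 probe set to be ranked against another. Array medians ran between 56.0 and 89.7 in mutants and between 44.1 and 89.0 in controls. Differences were tested as log2(intensity + 16) with limma, a linear model with shared variance estimates, and a gene is said to rise or fall where its adjusted p, over all genes, was under 0.05. Meningeal fibroblast markers were present on all arrays: their summed intensity was 27310 to 40570 in mutants and 31150 to 42890 in controls. Markers of neurons also stood on all arrays, with sums of 15710 to 19460 in mutants and 1753 to 4733 in controls. The sexes were not balanced. Xist, made from the inactive X chromosome of females, lay at 2.24 to 4.77 in the 4 mutants, at 4.78 to 8.73 in controls 1, 5 and 8, and at 536 to 1019.6 in the other 6 controls.

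Of the 6 genes 3 fell, Pdgfc, Pdgfd and Pdgfra, and 0 rose. Over all genes tested 6.31% fell and 8.58% rose. The 3 that fell are 2 ligands, 1 for each receptor, and the receptor PDGFRα. Pdgfc and Pdgfra are the genes altered in every mutant, so falls of these 2 are not independent of how the group was defined. Of the 3, only Pdgfd was not altered, and the count of 3 is not a result about the family. Pdgfa, Pdgfb and Pdgfrb did not pass the test in either direction.

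The promoter windows of both ligand genes that fell are shown because the Pdgfc null allele makes its reporter from the Pdgfc promoter, while the Pdgfd locus was not altered in these mice. Whether the Pdgfc window is intact in the null allele was not known here. The sequences are from RefSeq on GRCm38.p6 and read 5′ to 3′ on the plus strand. That of Pdgfc is the 250 bases before the annotated start, chr3:81036166-81036415. That of Pdgfd is the 127 bases before the outermost annotated start, chr9:6168236-6168362. Capitals mark a match to TATAAA.
Pdgfc: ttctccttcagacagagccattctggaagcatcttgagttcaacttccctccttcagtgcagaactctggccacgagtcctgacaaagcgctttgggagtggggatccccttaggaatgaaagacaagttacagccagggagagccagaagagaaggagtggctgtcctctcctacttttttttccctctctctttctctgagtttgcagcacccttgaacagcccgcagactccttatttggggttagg
Pdgfd: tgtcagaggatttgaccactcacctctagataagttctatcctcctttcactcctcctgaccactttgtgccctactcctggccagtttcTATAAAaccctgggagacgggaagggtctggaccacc

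Both strands of the windows were searched for the TATA box (TATAAA), the CAAT box (CCAAT), the GC box (GGGCGG) and a forkhead motif (TGTTTAC). The Pdgfd window held TATAAA once, 37 to 32 bases before the start, and none of the other motifs. Of windows of the same length before 32851 annotated starts, 6.68% held TATAAA. The Pdgfc window held 0 matches, and among windows of its length 12.4% held the TATA box, 33.8% the CAAT box, 32.7% the GC box and 3.17% the forkhead motif. These letters are a description of the windows and not evidence of binding.

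Pdgfc, which encodes the PDGFRα ligand deleted in the mutants, had intensities of 22.8, 27.9, 22.8 and 29.3 in the 4 mutants, against 5.88 (lowest), 151 (median) and 275 (highest) in the 9 controls. All mutants were low and close together, 8 controls lay above every mutant at 103 or more, and control 2 lay below every mutant. The mutant mean was 25.7 ± 3.41 (SD, n = 4) and the control mean 164 ± 86.8 (SD, n = 9). The mutant values lay below the median of every mutant array and were not checked against a background level, so their ratio to the controls is not given as a fold. On the log2(intensity + 16) scale, which shrinks the fold of low values, the difference was -1.84 with a 95% interval of -2.80 to -0.89 (adjusted p = 0.00772, two-sided exact permutation test over 715 splits of the mice p = 0.00839). Without control 2 the difference was -2.19, and the exact permutation test over the remaining 495 splits gave p = 0.00202. The call was lost with 1 in place of 16 (-2.19, adjusted p = 0.0619), with the methods' t-test (adjusted p = 0.0596) and with limma's trend and robust variances (adjusted p = 0.0510). The control coefficient of variation, 53.0%, was the highest of the 6 genes, beside 13.3% in the mutants.

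Pdgfa encodes the other ligand of PDGFRα, which developing neurons and astrocytes make. Its intensities were 242, 231, 207 and 282 in mutants, against 149 (lowest), 216 (median) and 252 (highest) in controls. The groups overlapped: 4 controls lay below all mutants and 1 mutant above all controls. The means were 240.4 ± 31.4 in mutants (SD, n = 4) and 207 ± 33.0 in controls (SD, n = 9). The difference of 0.21 on the log2 scale did not pass the test (adjusted p = 0.461, exact permutation p = 0.129), and its 95% interval of -0.08 to 0.50 leaves room for a rise of up to that size.

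Pdgfd, which encodes the PDGFRβ ligand with a CUB domain, had intensities of 104, 176, 123 and 178 in mutants, against 211 (lowest), 269 (median) and 316 (highest) in controls. Every mutant lay below every control, and Pdgfd was the only 1 of the 6 genes whose groups were apart. Over all genes tested, 3.04% had all mutants below all controls and 6.4% had all mutants above them. Mutants averaged 146 ± 37.6 (SD, n = 4) and controls 269.9 ± 32.4 (SD, n = 9), so that the mutant mean was 53.9% of the control mean. The log2 difference was -0.85 with a 95% interval of -1.15 to -0.54 (adjusted p = 2.81e-04), and the exact permutation p of 0.0014 is the smallest that 715 splits can give. Its spread ran opposite to that of Pdgfc, with a coefficient of variation of 25.8% in mutants and 12% in controls. Mutants 1 and 3, the lower pair for Pdgfd, were also the lower pair for Pdgfra and for the fibroblast markers. Neither the part of the fibroblast markers nor that of the vessel markers described below in the Pdgfd difference was tested beyond centring on the fibroblast markers, under which Pdgfd still fell (-0.54, adjusted p = 8.16e-05).

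Pdgfb, the endothelial ligand that recruits pericytes, had intensities of 142, 122, 114 and 158 in mutants, against 105 (lowest), 151 (median) and 239 (highest) in controls. The 4 mutants lay within the range of the controls. The means were 134 ± 19.8 in mutants (SD, n = 4) and 158 ± 43.3 in controls (SD, n = 9). The log2 difference was -0.19, with a 95% interval of -0.55 to 0.18 (adjusted p = 0.686, exact permutation p = 0.334).

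Pdgfra, the receptor gene with 1 null allele in every mutant, had intensities of 788, 1116, 848 and 1561 in mutants, against 1039 (lowest), 1921 (median) and 2255 (highest) in controls. Of the controls, 7 lay above all mutants at 1592 or more, while controls 1 and 3, at 1128 and 1039, lay among the mutants. Mutants averaged 1078 ± 352 (SD, n = 4) and controls 1764 ± 429 (SD, n = 9), and the mutant mean was 61.1% of the control mean. The log2 difference was -0.71 with a 95% interval of -1.16 to -0.27 (adjusted p = 0.0276, exact permutation p = 0.0126). This call was the least stable of the 3: it was lost without mutant 1, 2 or 3 or without control 2 (adjusted p = 0.132, 0.0557, 0.112 and 0.0504), and when Xist was added to the model as a covariate (-0.62, adjusted p = 0.252).

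Pdgfrb encodes the receptor of pericytes and vascular smooth muscle, which meningeal fibroblasts can also carry. Its intensities were 860.2, 813, 755 and 1004 in mutants, against 577 (lowest), 742 (median) and 932 (highest) in controls. Mutants were in the upper part of the controls' range, with 5 controls below all mutants and 1 mutant above all controls. The means were 858 ± 107 in mutants (SD, n = 4) and 742 ± 129 in controls (SD, n = 9). The log2 difference was 0.22 with a 95% interval of -0.09 to 0.52 (adjusted p = 0.463, exact permutation p = 0.148).

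**Figure D1:**
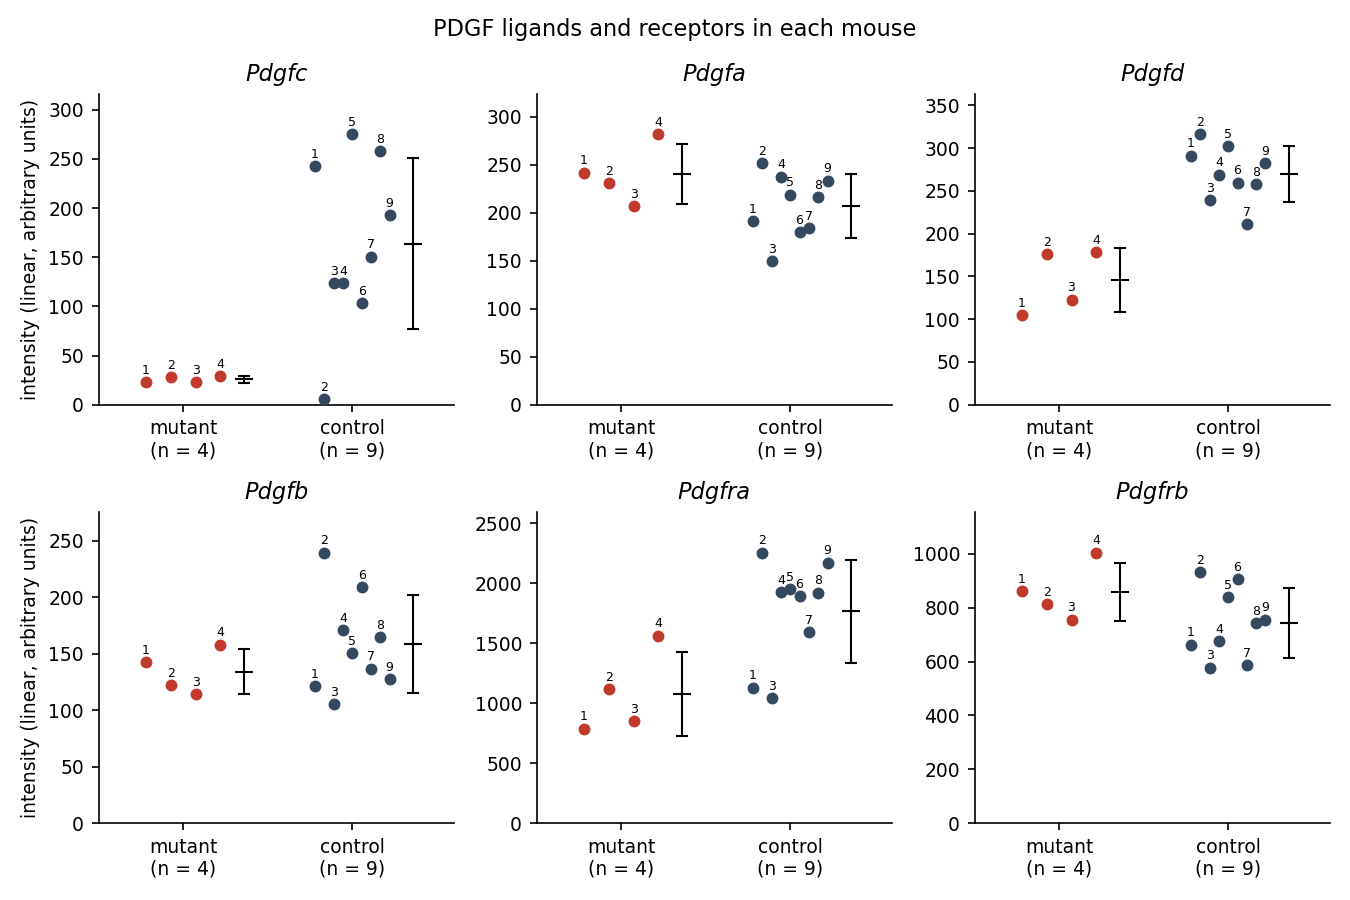
Intensity (linear scale, arbitrary units) of the 6 PDGF genes in each mouse, mutants in red on the left and controls in dark blue on the right, with the mouse's replicate number above each point and the mean ± SD beside each group. Pdgfd separates the groups, Pdgfc does so apart from control 2 at 5.88, and for Pdgfra controls 1 and 3 lie among the mutants.

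Mouse by mouse, much of the spread was shared. Mutant 4 had the highest value of the mutants for each of the 6 genes, and mutant 3 had the lowest for Pdgfa, Pdgfb, Pdgfc and Pdgfrb. Control 2 had the highest value of the controls for 5 genes and the lowest for Pdgfc. Over the 9 controls the array median, a measure of brightness, correlated with Pdgfa at 0.877 and with Pdgfra at 0.719, and with the other 4 genes at -0.05 to 0.43 (Pearson's r, given as a description).

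The direction of each difference was therefore set against other scalings of the arrays. Pdgfc and Pdgfd fell under quantile normalization and with arrays centred on their median, on reference genes or on the fibroblast markers. Pdgfra fell under the first 3 of these, at -0.81 to -0.65, but not when centred on the fibroblast markers (-0.41, adjusted p = 0.109). That last scaling moved the median of all genes by 0.31, and with it Pdgfa at 0.51 and Pdgfrb at 0.52 passed the test (adjusted p = 0.00473 and 0.0027), though the shift of all genes is the larger part of both values. Pdgfb, at -0.29 to -0.13 under the other 3 scalings, turned to 0.11 there and did not pass the test under any of them.

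**Figure D2:**
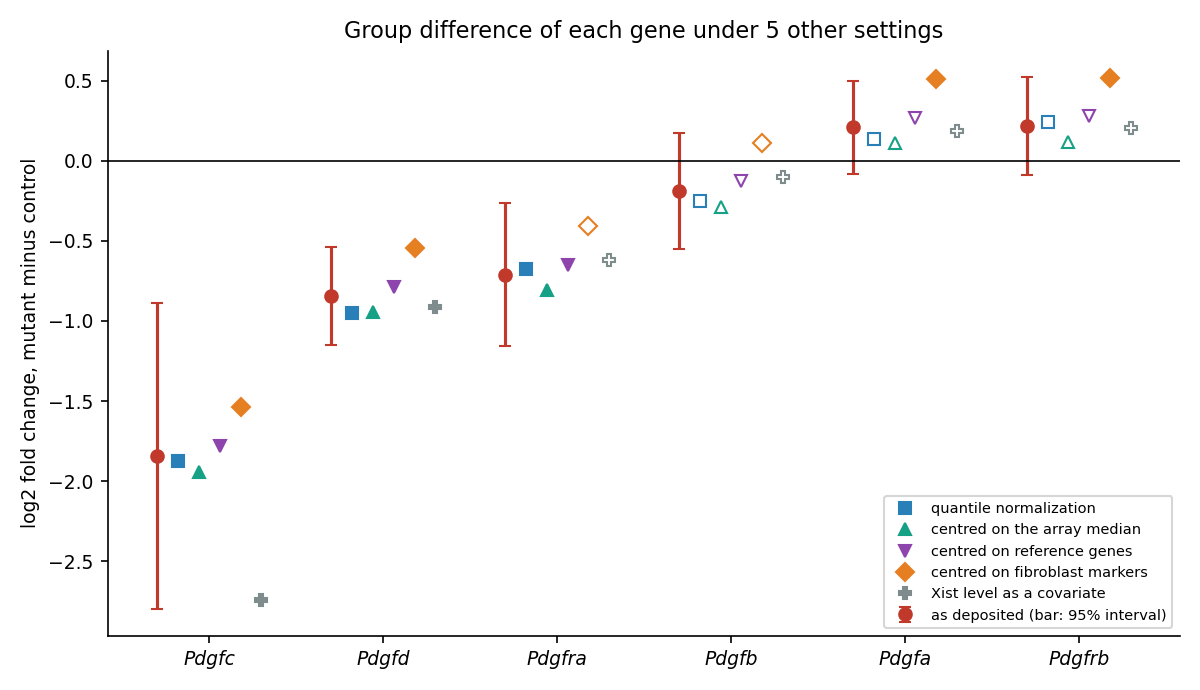
Log2 fold change (mutant minus control) of each PDGF gene for the values as deposited, with the 95% interval as a bar, and for 4 other scalings and the Xist covariate, where filled symbols passed an adjusted p under 0.05 and open symbols did not. Pdgfc and Pdgfd stay below 0 and filled in all 6 settings, while Pdgfra is open with fibroblast centring and with the Xist covariate.

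Both receptors were also compared within each array. Pdgfra minus Pdgfrb, on the log2 scale, was -0.12, 0.45, 0.16 and 0.63 in mutants, against 0.75 (lowest) and 1.5 (highest) in controls. Every mutant lay below every control. Whether this difference is free of array brightness was not tested. The dim controls 1 and 3 (array medians 52.9 and 51.8) had the lowest values of the controls, 0.75 and 0.83. The bright controls 4 and 9 (array medians 87.0 and 89.0) had the highest, 1.49 and 1.5. Control 6, the dimmest (44.1), was at 1.05, and control 7 (65.3) at 1.415. Controls 1 and 3 also had the lowest Pdgfra of the controls, and their Pdgfra allele is not in the labels. Mutant 1, whose array was the brightest (median 89.7), had the lowest value of all mice. The means were 0.28 ± 0.33 in mutants (SD, n = 4) and 1.21 ± 0.276 in controls (SD, n = 9), a difference of -0.93 (exact permutation p = 0.0014, the smallest possible, 0.00224 adjusted over 8 such differences). The sign of a single value has no meaning, since the 2 probe sets are not on a common scale, and only the shift between groups is a result. This shift was -1.05 to -0.79 over 16 alternatives, and it passed in each of them. Every mutant has a null allele of Pdgfra, so the shift is not independent of how the group was defined.

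Both pairs of ligands shifted too. The pair with Pdgfc holds the gene deleted in every mutant, so its shift is not independent of how the group was defined. Only Pdgfd and Pdgfb are a pair of unaltered genes. Pdgfc minus Pdgfa, the ligands of PDGFRα, was -2.62 ± 0.127 in mutants (SD, n = 4) and -0.57 ± 1.22 in controls (SD, n = 9), a shift of -2.05 (exact permutation p = 0.00699, adjusted 0.00799), with control 2 at -3.61. Without the 4 dimmest arrays that shift was -1.91 and did not pass (exact permutation p = 0.107). Pdgfd minus Pdgfb, the ligands of PDGFRβ, was 0.08 ± 0.361 in mutants (SD, n = 4) and 0.74 ± 0.319 in controls (SD, n = 9), a shift of -0.66 (exact permutation p = 0.00559, adjusted 0.00745).

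Each gene with a likely host cell was next set against markers of that cell. In such bulk tissue fewer cells of a type and less RNA per cell cannot be told apart. Pdgfra minus the mean of 15 fibroblast markers was -0.72 ± 0.197 in mutants (SD, n = 4) and -0.31 ± 0.372 in controls (SD, n = 9), a shift of -0.41 that did not pass (exact permutation p = 0.0783). The controls split: controls 1 and 3 were at -0.93 and -0.98, below all mutants, and the other 7 between -0.19 and -0.0046, above all mutants. Leaving out control 1 or control 3 gave shifts of -0.49 and -0.49 that passed (exact permutation p = 0.0101 each). The Pdgfra allele of each control is not in the labels, so these 2 levels cannot be matched to genotypes.

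Pdgfrb minus the mean of 12 mural cell markers was 1.58 ± 0.0982 in mutants (SD, n = 4) and 1.22 ± 0.124 in controls (SD, n = 9). The groups did not overlap, and the shift was 0.36 (exact permutation p = 0.0014, adjusted 0.00224). Pdgfb minus 13 endothelial markers was -1.37 ± 0.0365 in mutants (SD, n = 4) and -1.80 ± 0.139 in controls (SD, n = 9), also with no overlap (shift 0.43, exact permutation p = 0.0014, adjusted 0.00224). Thus the transcripts of Pdgfb and Pdgfrb stood higher in mutants relative to the mean of their marker lists, though neither gene passed the test on its own. Pdgfb was itself at -0.19, and the endothelial markers had a median of -0.605. The 6 endothelial markers that did not pass lay at -0.59 to -0.24, so the list did not move as 1. The marker lists were chosen with earlier results known, so these p-values are a description. Of the endothelial markers 7 of 13 fell and 0 rose, with sums of 5868 to 7697 in mutants and 8143 to 17210 in controls. Of the mural markers 0 of 12 passed, with sums of 6464 to 8328 in mutants and 6834 to 10690 in controls. Among all genes tested 6.31% fell and 8.58% rose.

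Neuronal markers moved most, and 16 of 16 rose with a median log2 fold change of 3.09, beside 8.58% that rose over all genes. Pdgfa did not rise by as much. Pdgfc is deleted in every mutant, so its difference from these markers cannot show whether it would have followed them. Pdgfa minus the neuronal markers was -1.56 ± 0.124 in mutants (SD, n = 4) and 0.99 ± 0.331 in controls (SD, n = 9), and Pdgfc minus the same markers was -4.18 ± 0.0842 in mutants and 0.42 ± 1.34 in controls. Neither pair of groups overlapped (exact permutation p = 0.0014 for both, adjusted 0.00224). All 16 markers rose, so the markers alone set the groups apart for a gene with little change of its own. These p-values are therefore not a result about Pdgfa or Pdgfc. The interval of the Pdgfa difference, -0.08 to 0.50, lay wholly below the median of 3.09 of the neuronal markers. The mean intensity of Pdgfa in the controls, 207, cannot be ranked against the levels of the markers. Whether neurons added Pdgfa transcript was not tested and cannot be read from these folds.

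**Figure D3:**
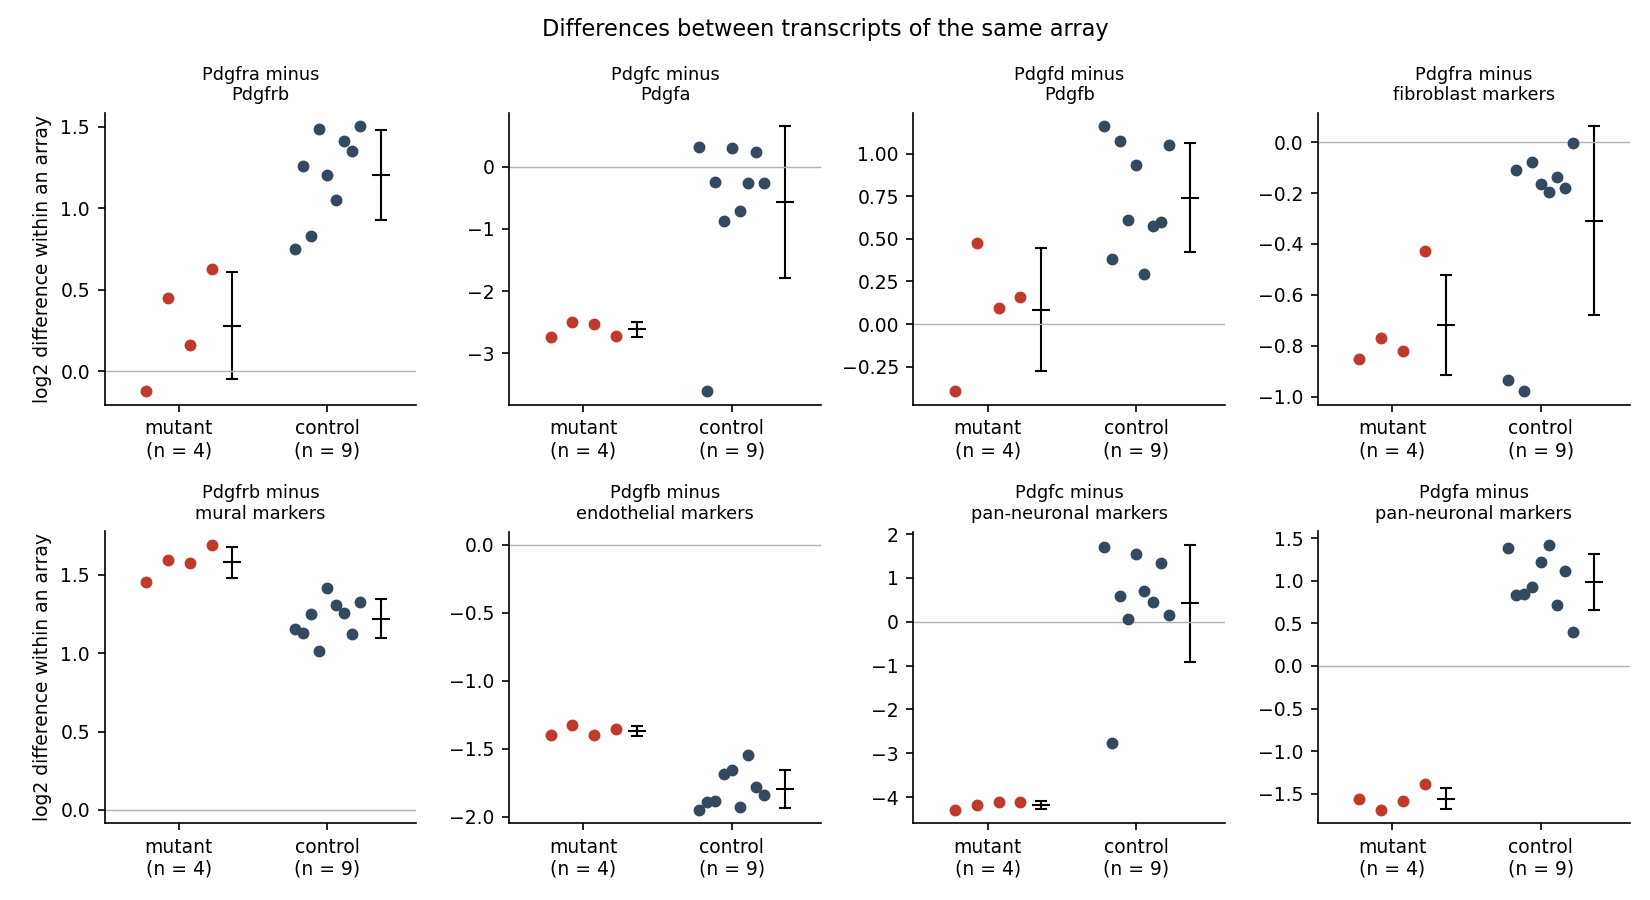
Log2 difference between 2 transcripts, or between a transcript and the mean of a marker list, within each array, with mutants in red on the left, controls in dark blue on the right and the mean ± SD beside each group. The groups are apart in 5 of the 8 panels, among them Pdgfra minus Pdgfrb (-0.12 to 0.63 in mutants, 0.75 to 1.5 in controls).

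Of the markers of other cells, 3 of 15 fibroblast genes fell and 2 rose (median -0.29), 4 of 11 oligodendrocyte precursor genes rose and 0 fell (sums 1461 to 1941 in mutants and 880.2 to 1493 in controls), and 8 of 9 macrophage genes fell (sums 2631 to 4907 in mutants and 6258 to 8610 in controls). Platelets store PDGF proteins, and 0 of 5 platelet markers passed the test (sums 292 to 620.1 in mutants and 222 to 527 in controls). Of 6 choroid plexus markers 1 rose and 2 fell (sums 644 to 3355 in mutants and 1265 to 1616 in controls), and 0 of 3 erythroid markers passed (sums 307 to 452 in mutants and 294 to 710.4 in controls). The shares over all genes tested were 8.58% rising and 6.31% falling. No marker of any list was at 0 on any array. Oligodendrocyte precursors carry Pdgfra, which fell and has a null allele in every mutant. Of their 11 markers the 4 that passed the test rose, and 7 did not pass. Among the latter were Olig2 at 0.08, Sox10 at 0.08, Cspg4 at 0.14 and Matn4 at -0.17 (adjusted p = 0.95, 0.96, 0.839 and 0.725). The part of each list in the levels of the PDGF genes was not tested beyond the differences given above.

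**Figure D4:**
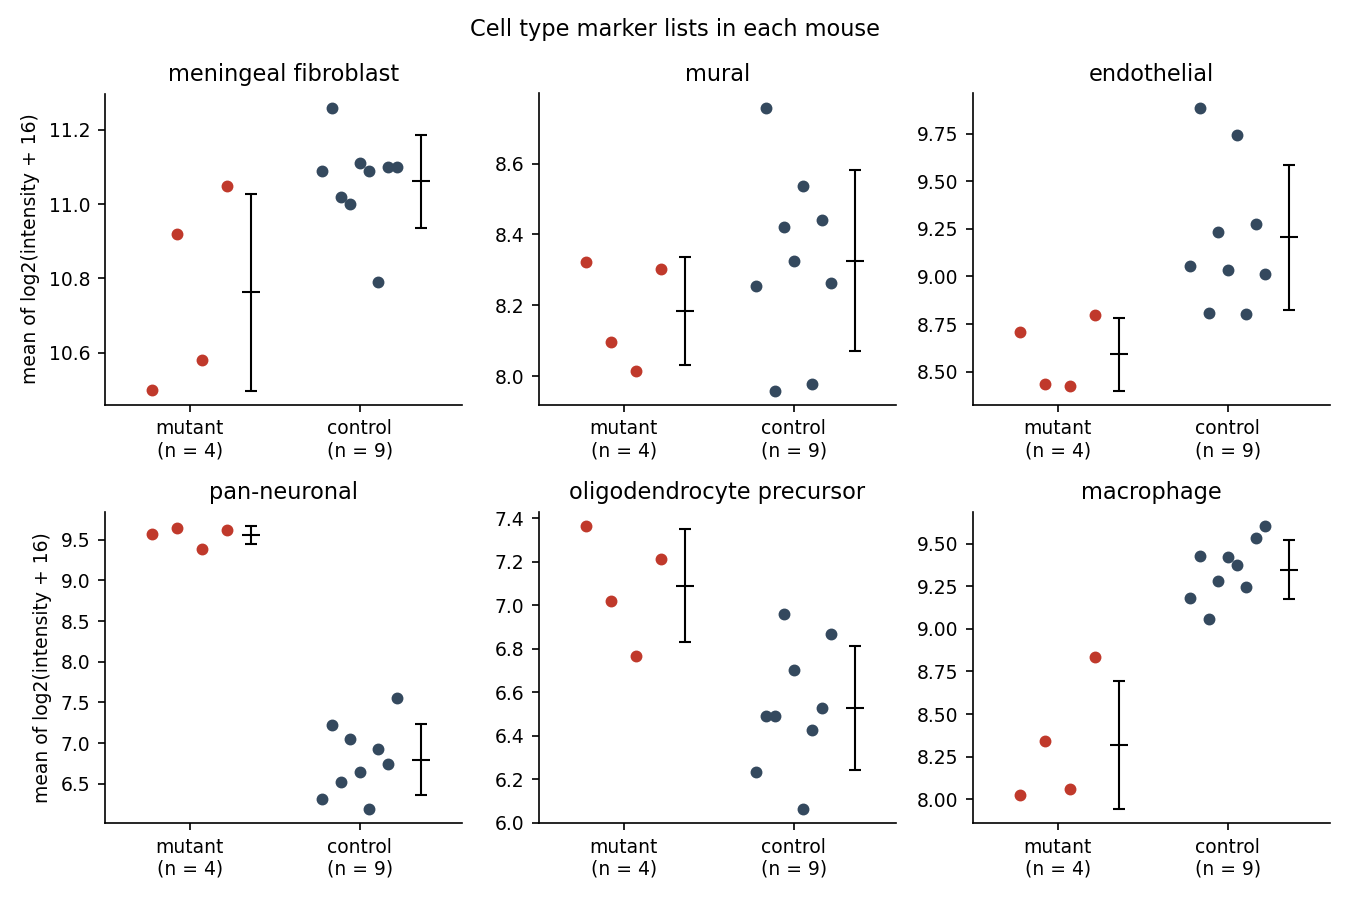
Mean of log2(intensity + 16) over the markers of 6 cell types in each mouse, with mutants in red on the left, controls in dark blue on the right and the mean ± SD beside each group. The groups are apart for neuronal, endothelial and macrophage markers, and overlap for fibroblast, mural and oligodendrocyte precursor markers.

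Among the 9 controls alone, where the difference between mutants and controls plays no part, 15 pairs of the 6 genes were compared. The controls still pool several genotypes and both sexes, and the part of these in the relations was not tested. Subtracting the array median takes the same value from both genes of a pair, which can itself raise r, and its part was not tested. That median correlated with Pdgfd at 0.433, Pdgfrb at 0.267 and Pdgfb at 0.215, but with Pdgfa at 0.877. As deposited, no pair passed the correction by Pearson's r (smallest adjusted exact permutation p = 0.0756). With the array median subtracted, Pdgfd and Pdgfrb, a ligand and its receptor, varied together (Pearson's r = 0.80, exact permutation p = 0.00455, adjusted over the pairs 0.034, and Spearman's rho = 0.833, exact p = 0.00827, adjusted 0.081). The relation was 0.816 without controls 1 and 6, the farthest from the median. As deposited it was weaker, at 0.701 (adjusted exact p = 0.102), and fell to 0.403 without controls 2 and 7. Pdgfa and Pdgfb gave r = 0.801 (exact permutation p = 0.00414, adjusted 0.034) and rho = 0.817 (exact p = 0.0108, adjusted 0.081), 0.892 without controls 1 and 6, and 0.548 as deposited. Pdgfb and Pdgfrb gave r = 0.833 (exact permutation p = 0.00681, adjusted 0.034) but rho = 0.567 (exact p = 0.121, adjusted 0.363), and r = 0.2 without controls 2 and 6, on which the relation rests.

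Pdgfa and Pdgfra, a ligand and its receptor, varied together as deposited (r = 0.816, exact permutation p = 0.00504, adjusted 0.0756, and rho = 0.883, exact p = 0.00308, adjusted 0.0462), with 0.819 left without controls 3 and 6. With the array median subtracted r was 0.446 (exact permutation p = 0.228, adjusted 0.342) and rho 0.483 (exact p = 0.194, adjusted 0.485). Pdgfc had no relation with another member that passed the correction on either scale.

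The genes whose pattern over the 9 controls was most like that of each member, by Pearson's r with the array median subtracted, were looked for among 12593 genes with a mean intensity of at least 64. They were Gle1 (0.984), Mfng (0.977) and Dhx38 (0.976) for Pdgfa, and Exoc3l (0.983), H2ac8 (0.981) and Zfpm1 (0.98) for Pdgfb. For Pdgfd they were Hid1 (0.984), Fbln1 (0.983) and 2610507B11Rik (0.973), and for Pdgfrb Ppp2r5d (0.992), Tdp1 (0.992) and Dennd2a (0.99). For Pdgfra they were Eme1 (0.953), Naa40 (0.941) and Dnm3 (0.938). For Pdgfc they were Map10 (0.957), Tmem117 (0.903) and Uros (0.884), which were at 0.592, 0.611 and 0.49 as deposited. Likeness to the other members was also lower as deposited, down to 0.726 for Zfpm1 with Pdgfb and 0.764 for Hid1 with Pdgfd. Only Dnm3 with Pdgfra was higher as deposited, at 0.959. With 9 mice and so many genes high values arise by search alone, and they are a description.

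Around the ligands, 10 genes that activate or bind PDGFs were measured, of which 2 fell and 0 rose (median log2 fold change -0.000585, beside 0.0043 over all genes). The shares over all genes tested were 6.31% falling and 8.58% rising. Plau encodes urokinase, a protease that removes the CUB domain of PDGF-D. Its intensities were 76.5, 107, 85.5 and 96.0 in mutants, against 186 (lowest), 279 (median) and 326 (highest) in controls, with no overlap (log2 fold change -1.40, adjusted p = 5.89e-07). Plau thus moved in the same direction as Pdgfd. The matriptase gene St14, whose protease can also act on PDGF-D, was at 0.06 (adjusted p = 0.978). Plat, the gene of tissue plasminogen activator, which cleaves PDGF-C, was at -0.15 (adjusted p = 0.708), and Plg, the gene of plasminogen, at 0.07 (adjusted p = 0.945). Furin, whose product processes PDGF-A and PDGF-B, was at -0.06 (adjusted p = 0.958).

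Nrp1, the gene of neuropilin 1, a co-receptor of VEGF that also binds PDGFs, was the other gene that fell. It had intensities of 383, 448, 398 and 444 in mutants, against 549.6 (lowest), 691 (median) and 784 (highest) in controls, again with no overlap (log2 fold change -0.64, adjusted p = 0.00152). The calls of Plau and Nrp1 held under all alternatives run. The remaining binding partners did not pass: Lrp1, which interacts with PDGFRβ, was at 0.18, Sparc, which binds PDGF-B, at -0.32, Cspg4, the NG2 proteoglycan, at 0.14 and the receptor-like gene Pdgfrl at 0.38 (adjusted p = 0.617, 0.112, 0.839 and 0.133).

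Of 24 measured genes of proteins that carry the signal from the receptors, 3 rose and 3 fell, with a median of 0.15. Over all genes tested 8.58% rose and 6.31% fell, and the counts of this list were not tested against these shares. Fyn, a kinase of the Src family, rose most: its intensities were 709.9, 794, 652 and 789.8 in mutants, against 240 (lowest), 325 (median) and 448 (highest) in controls (log2 fold change 1.16, adjusted p = 9.62e-06). Pik3r1 and Pik3r2, regulatory subunits of phosphatidylinositol 3-kinase, rose by 0.61 and 0.56 (adjusted p = 0.0052 and 0.00657). Map2k1, the kinase MEK1 of the ERK cascade, fell by 0.61 (adjusted p = 0.00182). Chosen for mention once the values were known, the adaptor genes Shc1 (-0.53, adjusted p = 0.00722) and Nck1 (-0.49, adjusted p = 0.0368) were the rest of those that fell. Fyn and the 2 subunit genes were measured in tissue in which neuronal markers also rose, and the part of these markers was not tested.

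Of 15 measured genes of feedback and negative regulators, 2 rose and 0 fell (median 0.0142), beside 8.58% and 6.31% over all genes. Dusp4, a phosphatase that inactivates MAP kinases, had intensities of 91.9, 102, 69.0 and 86.8 in mutants, against 28.5 (lowest), 36.6 (median) and 43.8 (highest) in controls (log2 fold change 1.01, adjusted p = 8.67e-06). Cblb, a ubiquitin ligase that acts on receptor kinases, rose by 0.61 (adjusted p = 0.00137). Neuronal markers rose in the same tissue, and their part in the rises of Dusp4 and Cblb was not tested. The Sprouty genes Spry1, Spry2 and Spry4, which dampen receptor signalling, were at 0.02, 0.36 and 0.01 and did not pass (adjusted p = 0.992, 0.118 and 0.993).

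Immediate early genes are switched on within minutes of receptor activation. Of 14 measured, 1 fell and 0 rose, with a median of -0.17, beside 6.31% and 8.58% over all genes. Ier3 was the gene that fell, by 0.66 (adjusted p = 0.0045). Fos at -0.27, Egr1 at 0.23 and Myc at -0.22 did not pass (adjusted p = 0.573, 0.65 and 0.511).

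Of 15 ligands and receptors related to the PDGF system by structure, 5 fell and 1 rose, with a median of -0.37. Among all genes tested 6.31% fell and 8.58% rose. Csf1r, a receptor kinase of the same class as the PDGF receptors that marks macrophages, had intensities of 298, 371, 289 and 489.6 in mutants, against 602 (lowest), 734 (median) and 865 (highest) in controls (log2 fold change -1.0, adjusted p = 4.12e-05). Kdr, the endothelial VEGF receptor, fell by 0.93 (adjusted p = 0.00192) and Flt4, the VEGF receptor of lymphatic endothelium, by 0.59 (adjusted p = 0.0094). Kitl, the ligand of Kit, fell by 0.54 (adjusted p = 0.00457). Also mentioned once the values were known, Csf1 (-0.54, adjusted p = 0.0152) fell and Vegfd (0.68, adjusted p = 0.0104) rose. Kdr is also 1 of the endothelial markers, and Csf1r moved in the same direction as the macrophage markers given above.

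**Figure D5:**
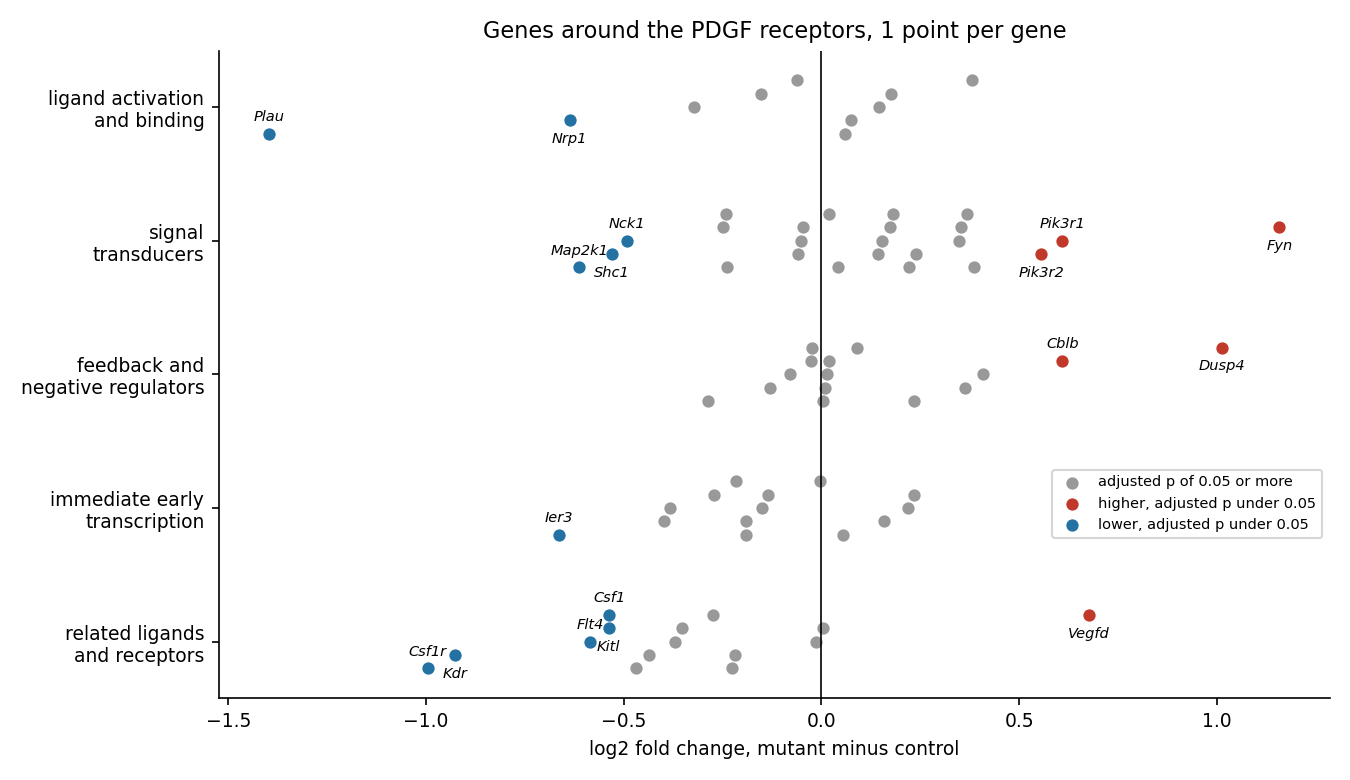
Log2 fold change (mutant minus control) of each measured gene in 5 lists around the PDGF receptors, 1 point per gene, with genes past an adjusted p under 0.05 named and coloured red (higher) or blue (lower). Plau (-1.40) and Csf1r (-1.0) lie farthest to the left, Fyn (1.16) and Dusp4 (1.01) farthest to the right.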

How the data were processed

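Total RNA from the cerebral meninges of 4 mutant and 9 control pups was measured on Affymetrix Mouse Gene 1.0 ST arrays, each pup on its own array. The authors summarised probe signals with PLIER, and deposited intensities on a linear scale; the PLIER version and any scaling between arrays are not given in the sources used here. Groups were taken from the labels. Raw data were not used. The number of arrays, not a read depth, limits the precision.

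Of 35557 probe sets 21789 carry 1 gene symbol in the platform table, 1621 carry several and 12147 are not listed; 21698 matched RefSeq by Entrez ID. The brightest probe set stood for each of the 999 genes with several, which left 19938 genes. Values were used as log2(intensity + 16), which understates the fold of low values, and compared with limma 3.58.1 in R 4.3.3 (two-sided moderated tests on all mice, no covariate), and p-values were adjusted over all genes after Benjamini and Hochberg. The fit was tested on simulated data. Exact permutation tests used all 715 splits of the mice. Differences and correlations were computed in Python 3.11.15 and figures drawn with matplotlib 3.10.9.

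The members and the lists of related genes and markers were chosen with earlier results of these data known, so list counts have no test. For the same reason the p-values of differences against marker lists are a description. Named genes are the 6 members, up to 4 called genes of each pathway list with the smallest adjusted p, all genes of lists of 10 or fewer and the 3 genes most like each member; Shc1, Nck1, Csf1 and Vegfd, and the uncalled genes given for Sprouty and immediate early genes, were added after values were seen. Some listed genes are not reported here. Promoter windows came from RefSeq (GRCm38.p6), found for 4 of the 6 genes, of which 2 are printed. The alternatives were other constants (1 and 32), filters on dim genes, other probe set rules, scalings and variance models, the methods' t-test, models with Xist as a covariate or with replicate numbers as blocks, and runs without single mice or the 4 dimmest arrays.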

Additional observations from a re-analysis of the deposited data

Results flagged for a closer look

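Control 2 was far from the other 8 controls in 3 of the 28 groups of values examined, each time as the lowest mouse. Its Pdgfc value on the log2(intensity + 16) scale was 4.45, and the gap to the next control took up 0.656 of the range of the 9 controls, above the 95% critical value of 0.493 of Dixon's test. For Pdgfc minus Pdgfa control 2 was at -3.61 (gap 0.699 of the range), and for Pdgfc minus the neuronal markers at -2.77 (gap 0.635). All 3 rest on the same Pdgfc probe set of the same array, so they are 1 event and not 3. Chance alone flags about 1 in 20 groups. The array median of control 2, 74.0, was within the range of the other controls, and control 2 was the highest control for the other 5 PDGF genes. Its genotype is not in the labels, and the study's description of the design lists Pdgfc-/- pups among the controls.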

How the results depend on the processing

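Under 30 alternatives for each gene and 16 for each within-array difference no called value changed sign. Pdgfc lost its call with 1 in place of 16 (-2.19, adjusted p = 0.0619), with the methods' t-test (-1.84, 0.0596), under limma's trend with robust variances (-1.84, 0.0510) and in the fit with a replicate block (-1.30, 0.190). Pdgfd lost it only with unequal variances (-0.85, 0.106). Pdgfra lost it with 1 in place of 16 (-0.72, 0.0556), all probe sets (-0.71, 0.0537), centring on fibroblast markers (-0.41, 0.109), the methods' t-test (-0.71, 0.0836), unequal variances (-0.71, 0.219), the Xist covariate (-0.62, 0.252) and the replicate block (-0.53, 0.0974). Leaving out 1 mouse at a time gave -0.90 to -0.58 for Pdgfra, -2.19 to -1.72 for Pdgfc and -0.95 to -0.72 for Pdgfd, and the calls of Pdgfc and Pdgfd held each time. Pdgfa (0.51, 0.00473) and Pdgfrb (0.52, 0.0027) passed only when centred on fibroblast markers. Without the 4 dimmest arrays, Pdgfc minus Pdgfa was -1.91 (exact permutation p = 0.107) and Pdgfra minus the fibroblast markers -0.57 (exact permutation p = 0.0119). Pdgfra minus the fibroblast markers was -0.51 to -0.36 with 1 mouse left out, and passed without mutant 4, control 1 or control 3 (exact permutation p = 0.0455, 0.0101 and 0.0101).

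Over all genes 1710 rose and 1258 fell. The counts of rises and falls were 2667 and 3610 with quantile normalization, 6045 and 597 centred on fibroblast markers, and 1139 and 400 with unequal variances. Falls alone moved by over 1.5 times centred on the array median (2862), with array quality weights (2023), with the Xist covariate (605) and with the replicate block (545). With 1 mouse left out, rises were 1331 to 1904 and falls 777 to 1490, lowest without mutant 3 (777) and mutant 1 (778). The share of rises among calls was 57.6%, and 42.5% with quantile normalization, 38.7% centred on the array median and 91% on fibroblast markers.

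Mice that share a replicate number did not deviate together (correlations of -0.34, 0.16, 0.31 and -0.093), so no pairing was assumed, and controls 5 to 9 share none with a mutant. Of the other named genes, Map2k1, Pik3r2, Shc1, Nck1, Ier3, Csf1r and Vegfd lost their calls with unequal variances, and Pik3r2, Nck1, Kdr, Kitl, Flt4, Vegfd and Csf1 with the Xist covariate. Kitl, Flt4, Csf1 and Nck1 lost theirs when centred on fibroblast markers, Vegfd without mutant 4 (0.065) and Csf1 without mutant 3 (0.0598). The causes of these changes were not tested. The smallest exact p that 4 against 9 mice allow is 0.0014.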

Other observations

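Within the controls, the Pdgfc level ran with the sex of the pup, as read from Xist. Controls 1, 5 and 8, with Xist at 4.78 to 8.73, had the 3 highest Pdgfc intensities of all 13 mice, 242, 275 and 258. The other 6 controls, with Xist at 536 to 1019.6, had Pdgfc at 5.88 to 193. The 4 mutants also had low Xist, at 2.24 to 4.77, and Pdgfc at 22.8 to 29.3, and the Pdgfc difference was -2.74 (adjusted p = 0.00123) in a model that held Xist, against -1.84 in one without it. Eif2s3y, a gene of the Y chromosome, gave the same sexes, at 408, 449 and 515 in controls 1, 5 and 8 and at 1.64 to 3.76 in the other 6. The order was noticed in these data and not tested. The labels do not give the Pdgfc genotype of each control, so its part cannot be told apart from that of sex. Pdgfra did not follow this order: controls 1, 5 and 8 had 1128, 1952 and 1921.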
